A study of Rattus norvegicus with 69 samples.

Results

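The GDNF pathway genes Gdnf, Gfra1 and Ret were followed through the cycle of the rat seminiferous epithelium, in isolated testis cells and in whole testis. All probe sets that the array annotation paired with 1 of these symbols were taken, which gave 3 of the 14217 gene symbols and 6 of the 31042 probe sets used: 1 for Gdnf (1369598_at), 2 for Gfra1 (1367954_at and 1387007_at) and 3 for Ret (1370989_at, 1371112_at and 1388208_a_at). Gfra1 was already known from these arrays to be highest at stage VIII, so the stage profile of probe set 1367954_at is described without a test, and the question asked of the isolated cells was which of them carried that level.

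GDNF is a secreted growth factor that Sertoli cells, and in rodents also peritubular myoid cells, supply to the spermatogonial stem cells of the testis. It binds GFRA1, a co-receptor held at the cell surface by a lipid anchor, and the pair activates the receptor tyrosine kinase RET, which signals through adaptors to the RAS, PI3K and SRC family kinases. In rodents GFRA1 and RET are known from undifferentiated spermatogonia, and loss of GDNF signal there depletes the stem cells.

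The 69 samples, 1 Affymetrix rat array each, came from Sprague Dawley rats. Tubules dissected by transillumination gave 49 samples from rats of 55 to 60 days in 10 groups (stage I, stage II-III, stage IV-V, stage VI, stage VIIa.b, stage VIIc.d, stage VIII, stage IX-XI, stage XII and stage XIII-XIV), with 5 samples each and 4 for stage IV-V, and each sample pooled 25 segments per rat from 2 rats. Isolated cells were round spermatids and pachytene spermatocytes (4 samples each, 55 to 60 days), a mixed pool of spermatogonia plus early spermatocytes (3 samples, 18 to 20 days) and Sertoli cells (4 samples, 55 to 60 days, about 85% pure), with 85% to 95% purity stated for the germ cells. For whole testis (5 samples) the sources used here state no age, and the stage IX-XI samples are called IX-XII in another label field, so they may hold stage XII tubules. No agent or altered allele is named for any group. Elongating spermatids and spermatogonia of adult rats were not among the isolated cells.

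Signals were on the MAS5 scale, in arbitrary units, with each array scaled by the authors to 1 trimmed mean. Array medians lay between 30.9 and 58.2. The 3′ to 5′ ratio of the actin control was 2.65 to 3.64 in stage VIIc.d replicates 2 and 3, stage IX-XI replicates 2 and 3 and spermatogonia plus early spermatocytes replicate 3, against 1.26 to 2.56 in the 60 samples outside this set and outside the round spermatids. In round spermatids the GAPDH control ratio was 1.75 to 2.44, against 0.90 to 1.62 in the same 60 samples. Marker genes separated the preparations only in part. The summed signal of 13 Sertoli cell markers had a median of 24535 in Sertoli cells and 709 to 5601 in the germ cell groups, and that of 8 round spermatid markers was 13560 in round spermatids and 455 to 3317 in the other isolated cells. The 6 pachytene spermatocyte markers did not set that group apart, with summed signals of 13680 in pachytene spermatocytes and 14290 in round spermatids. The summed signal of 7 Leydig cell markers was 8934 in spermatogonia plus early spermatocytes and 6627 in Sertoli cells and 2612 in whole testis, against 263 to 356 in the tubule groups. The summed signal of 7 spermatogonial markers was 1153 in spermatogonia plus early spermatocytes and 1710 in Sertoli cells, where Uchl1 alone gave 1181.

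The 250 bases before the RefSeq start of each gene are shown so that the control regions of 3 genes with different profiles can be compared. They are RefSeq sequence of build GRCr8, each on its gene's own strand, and capitals mark matches to letters that were searched on both strands. These were the GC box, with the letters GGGCGG, and the TATA box that many tightly regulated promoters carry, with the letters TATAAA. The cAMP response element, through which the transcription factor CREB is known to act on Gdnf in Sertoli cells, was searched as TGACGTCA. Its shorter core was searched by itself as TGACG, which reads CGTCA where it lies on the opposite strand. Gfra1 is on chromosome 1 (267325297 to 267557037, minus strand) and its window is chr1:267555812-267556061, inside the span of the gene record, so a longer transcript starts further upstream.
Gfra1: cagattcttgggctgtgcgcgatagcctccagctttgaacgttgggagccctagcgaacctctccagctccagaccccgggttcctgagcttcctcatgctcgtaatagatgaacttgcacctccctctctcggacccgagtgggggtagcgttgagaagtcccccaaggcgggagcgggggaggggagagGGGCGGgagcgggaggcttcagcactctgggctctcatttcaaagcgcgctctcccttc
Gdnf (chromosome 2, 58621327 to 58647242, plus strand; window chr2:58621077-58621326): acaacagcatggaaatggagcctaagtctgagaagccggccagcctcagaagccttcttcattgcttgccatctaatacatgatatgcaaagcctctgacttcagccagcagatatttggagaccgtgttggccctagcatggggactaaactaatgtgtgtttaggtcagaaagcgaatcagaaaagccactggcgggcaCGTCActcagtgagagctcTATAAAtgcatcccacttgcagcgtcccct
Ret (chromosome 4, 152998344 to 153040556, minus strand; window chr4:153040557-153040806): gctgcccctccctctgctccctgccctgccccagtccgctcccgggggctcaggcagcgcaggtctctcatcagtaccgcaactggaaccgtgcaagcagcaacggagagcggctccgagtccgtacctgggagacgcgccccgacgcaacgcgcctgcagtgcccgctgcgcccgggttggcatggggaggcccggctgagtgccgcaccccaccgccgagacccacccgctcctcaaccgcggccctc
The Gfra1 window held 1 GC box, the Gdnf window 1 TATA box and 1 shorter core of the cAMP response element, and the Ret window none of the 4 motifs. Over the same window of all 33469 promoters in the table, 30.5% held the GC box, 12.9% the TATA box, 18.2% the shorter core (matches inside the full element included) and 1.59% the full cAMP response element. GC content was 62.0% for Gfra1, 49.6% for Gdnf and 72.8% for Ret.

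The ligand was near the bottom of the signal range everywhere. Gdnf lay between 1.84 and 27.5 in the 69 samples, below the table median of 43.7 in all 69, and 10.5% of probe sets had a lower mean signal. The stage means lay between 7.19 (stage IV-V) and 14.1 (stage II-III), and isolated cells averaged 6.01 in round spermatids, 7.92 in pachytene spermatocytes, 7.94 in spermatogonia plus early spermatocytes and 8.40 in Sertoli cells. The 4 Sertoli cell samples had 9.62, 16.8, 3.01 and 4.21. Sertoli cells, a known source of the ligand, overlapped every germ cell group. Their preparation also had the highest summed signal of 7 peritubular myoid cell markers among the isolated cells (4841, against 331 to 1005). The deposited table held no detection calls, so these signals were not shown to lie above background.

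Gdnf was too low for the filter used in the tests (signal above the table median in at least 3 samples of a fit). In the fit without that filter, limma's F-test gave an adjusted p of 0.745 over the 10 stages with 1.44-fold between the extreme stages, where 24.9% of probe sets were called. The same fit over the 4 isolated cell groups gave an adjusted p of 0.868, where 74.5% of probe sets were called. A probe set was called at a Benjamini-Hochberg adjusted p under 0.05 and at least 2-fold, and every fold here is on the scale of log2(signal + 5.11), which understates changes of low signals.

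The co-receptor probe set 1367954_at had the largest excursion of the 6. At stage I it had 57.9, 17.8, 25.9, 48.95 and 59.3, a mean of 42.0 ± 19.0 (SD, n = 5). Means were 56.9 ± 31.4 at stage II-III (n = 5), 77.0 ± 9.13 at stage IV-V (n = 4) and 99.5 ± 14.0 at stage VI (n = 5). Neighbouring groups among these early stages overlapped. At stage VIIa.b the samples had 254, 170, 266, 262 and 256 (242 ± 40.7), and the lowest of them was above the highest stage VI value of 113.

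From there the Gfra1 signal was higher at each step to stage VIII. At stage VIIc.d the samples had 393, 561, 444, 358 and 322 (416 ± 92.8). At stage VIII they had 584, 517, 631, 663 and 743 (628 ± 84.8). At stage IX-XI they had 481, 457, 597, 694 and 573 (561 ± 95.1). Stage VIII and stage IX-XI overlapped, and their means differed by less than either SD, so these data do not order the pair.

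The decline followed within the next stages. At stage XII the samples had 290, 280, 242, 548 and 264, and replicate 4 lay apart from the others, with a mean of 325 ± 126 with it and 269 ± 20.7 without it. At stage XIII-XIV they had 129, 110, 92.7, 103 and 65.5 (99.9 ± 23.3), all below every stage XII sample. The range from stage I to stage VIII was 14.4-fold. Without the high-ratio replicates, stage VIIc.d averaged 358 and stage IX-XI 583 (n = 3 each), and stage VIII still had the highest mean.

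**Figure D1:**
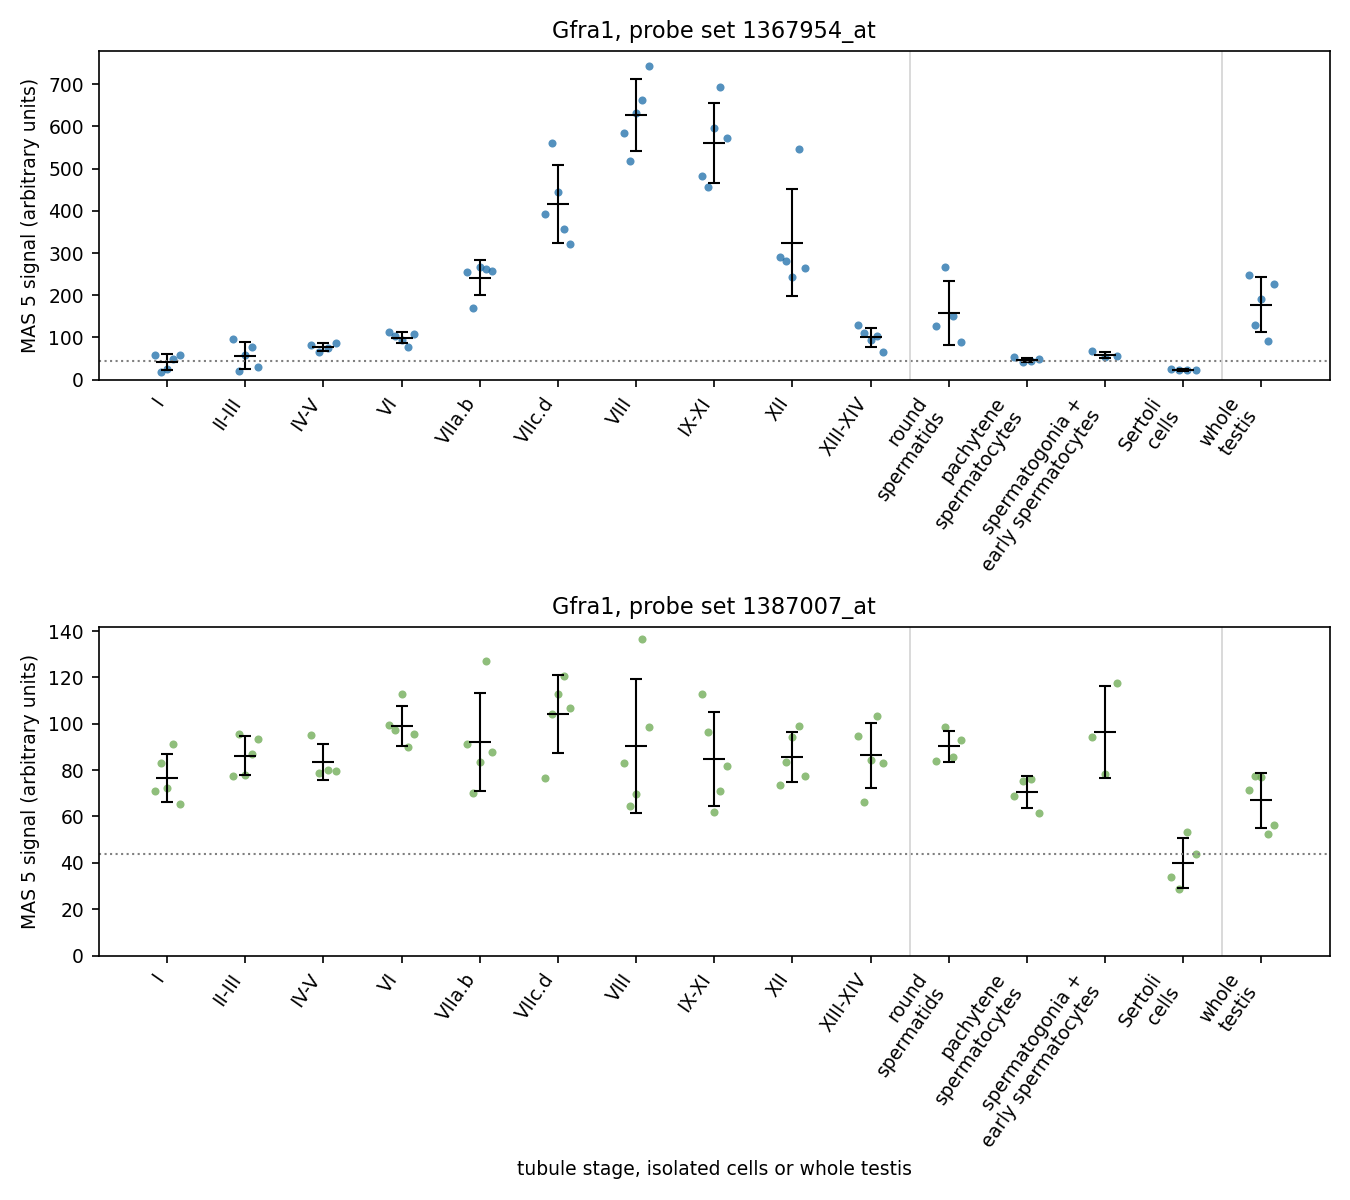
Signal of both Gfra1 probe sets (MAS5 scale, arbitrary units, linear axes) in every sample by group, with points for samples, black bars for the mean ± SD, a dotted line at the table median of 43.7 and separate axes for each probe set. Probe set 1367954_at reached 628 at stage VIII and no isolated cell sample exceeded 267, whereas stage means of probe set 1387007_at stayed between 76.6 and 104.

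The second Gfra1 probe set did not share this profile. Probe set 1387007_at had stage means between 76.6 (stage I) and 104 (stage VIIc.d), and every tubule sample was above the table median. At stage VIII its samples had 83.2, 64.5, 69.8, 137 and 98.5. Its stage groups overlapped throughout, and limma's F-test over stages gave 1.33-fold and an adjusted p of 0.465, where 32.5% of the 22258 probe sets tested were called. Over the 10 stage means its correlation with 1367954_at was 0.36, a description over means that share arrays. The array annotation names a different sequence record for each of the 2 probe sets. The sources used here hold no probe sequences to show which transcripts each detects, so the stage profile is that of 1367954_at alone.

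None of the isolated preparations reached the stage VIII level of 1367954_at. The sample labels give these preparations no stage. A signal confined to the stage VIII cells of a type would be averaged there with cells of other stages, so the cell that carries the peak was not settled. On 1367954_at, round spermatids had 126, 267, 151 and 90.2 (159 ± 76.3, n = 4), the highest of the isolated groups. Pachytene spermatocytes had 52.5, 41.8, 42.8 and 48.8 (46.5 ± 5.03, n = 4). The spermatogonia plus early spermatocytes had 67.1, 52.3 and 55.3 (58.2 ± 7.81, n = 3), close to the mean of 56.9 in stage II-III tubules. Sertoli cells had 25.8, 22.3, 21.6 and 23.3 (23.2 ± 1.84, n = 4), the lowest of the 15 groups. Every isolated sample lay below the lowest stage VIII sample of 517.

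Stage VIII tubules exceeded each isolated group on 1367954_at in the fit of all samples. Stage VIII was picked by its level, so these p-values give no separate support for the stage VIII maximum. The difference, in log2, was 2.05 against round spermatids (95% interval 1.51 to 2.59, 4.14-fold, limma adjusted p = 1.94e-09), 3.61 against pachytene spermatocytes (12.2-fold, adjusted p = 2.2e-18), 3.32 against spermatogonia plus early spermatocytes (9.96-fold, adjusted p = 1.2e-15) and 4.47 against Sertoli cells (22.2-fold, adjusted p = 2.85e-23). Of 24046 probe sets, 23% were called in either direction against round spermatids, 21.6% against pachytene spermatocytes, 36.1% against spermatogonia plus early spermatocytes and 57.7% against Sertoli cells, and the median difference over all of them was between -0.01 (spermatogonia plus early spermatocytes) and 0.34 (Sertoli cells). Stage VIII lay above all 4 isolated groups in 20.5% of the 24046 probe sets. The share was 43.8% among the 771 that were called over stages with their peak at stage VIII, so this trait alone was not particular to Gfra1. The gap to the highest isolated group was at least as large in 17 of the 24046 probe sets (0.0707%, Gfra1 1367954_at included), and in 15 of those 771. That gap was taken at stage VIII for every probe set, and stage VIII was picked as the Gfra1 peak. The share of all 24046 therefore favours Gfra1, and the 771 that peak there are the closer comparison.

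**Figure D2:**
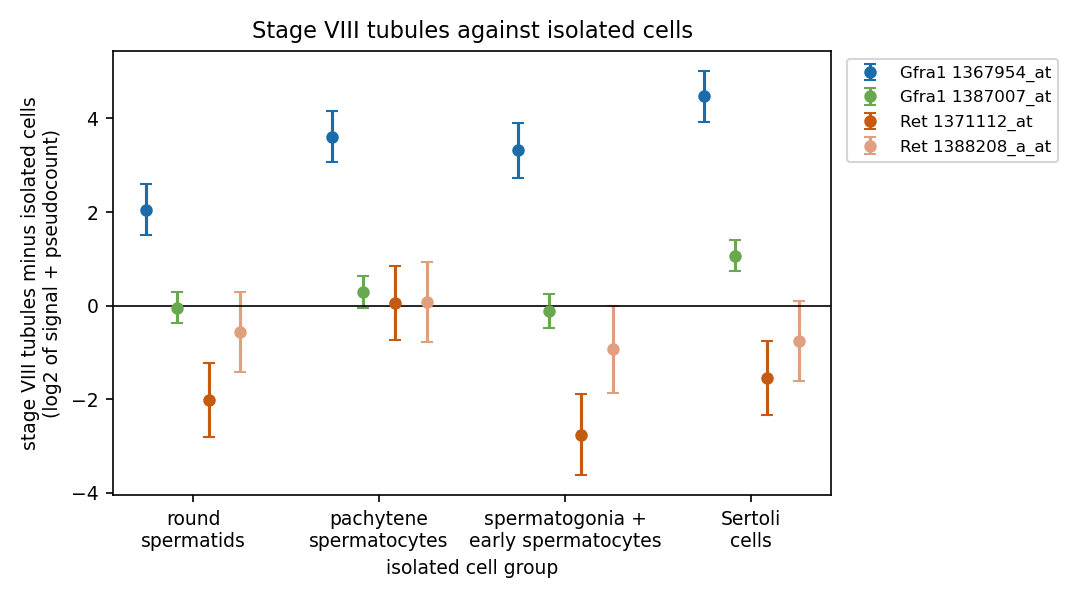
Difference between stage VIII tubules and each isolated cell group for the 4 Gfra1 and Ret probe sets tested, as log2(signal + pseudocount) with 95% intervals from the fit. Gfra1 1367954_at lies above 0 against all 4 groups, and Ret 1371112_at lies below 0 against round spermatids, spermatogonia plus early spermatocytes and Sertoli cells.

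Among the isolated cells themselves, Gfra1 1367954_at was higher in round spermatids than in the other 3 groups. It was 2.95-fold higher than in pachytene spermatocytes (log2 difference 1.56, SE 0.24, limma adjusted p = 2.34e-05), where 22% of probe sets were called. It was 5.36-fold higher than in Sertoli cells (adjusted p = 2.61e-08), where 67% were called. Against spermatogonia plus early spermatocytes it was 2.41-fold higher (log2 difference 1.27, adjusted p = 0.000225), where 53.9% were called and the median of all probe sets was -0.29, but without round spermatid replicate 2, the sample with 267, the difference was 0.99 and fell short of 2-fold. The same replicate had the highest summed signal of 11 elongating spermatid markers (49160, against 38890 to 42220 in the other 3) and the highest GAPDH ratio (2.44), and the part of either in the Gfra1 value was not tested.

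Gfra1 1367954_at was also 2.23-fold higher in spermatogonia plus early spermatocytes than in Sertoli cells (log2 difference 1.16, adjusted p = 0.000834), where 36.9% of probe sets were called. That call was lost with a pseudocount of 16 (0.92) and with quantile normalization (0.41, adjusted p = 0.145). It did not pass between spermatogonia plus early spermatocytes and pachytene spermatocytes (0.29, 95% interval -0.25 to 0.84, adjusted p = 0.33). On probe set 1387007_at the isolated cells had 90.3 ± 6.72 in round spermatids, 70.5 ± 6.95 in pachytene spermatocytes, 96.6 ± 19.8 in spermatogonia plus early spermatocytes and 40.0 ± 10.9 in Sertoli cells. Sertoli cells were again lowest, 2.27-fold below spermatogonia plus early spermatocytes (adjusted p = 5.22e-05). With quantile normalization that difference fell below 2-fold (log2 difference 0.64, limma adjusted p = 0.00136). Over the 4 groups the F-test called both Gfra1 probe sets (adjusted p = 2.17e-07 for 1367954_at and 2.66e-05 for 1387007_at), where 86.2% of 20253 probe sets were called.

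In order of mean signal on 1367954_at, the 15 groups ran from stage VIII through stage IX-XI, VIIc.d, XII and VIIa.b to whole testis (178), round spermatids (159), stage XIII-XIV, stage VI, stage IV-V, spermatogonia plus early spermatocytes, stage II-III, pachytene spermatocytes, stage I and Sertoli cells. Neighbours in this order overlapped in all 14 steps. In bulk samples, more cells of a type and more RNA per cell cannot be told apart, and the tubules also hold cells that were not isolated.

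Several marker lists had their highest summed signal at or next to stage VIII, and their part in the Gfra1 profile was not tested. The summed signal of 11 elongating spermatid markers had stage medians of 88540 at stage VIIc.d, 92650 at stage VIII and 95300 at stage IX-XI (175200 and 179200 in the replicates of high control ratio), against 52445 to 78250 at the other 7 stages, and 41020 in round spermatids. Its levels at stage XII (72860) and stage XIII-XIV (78250) did not drop as Gfra1 did. Single samples overlapped widely, with 54770 to 101000 at stage VIII and up to 106000 at stage I. The summed signal of 7 spermatogonial markers was 634 to 737 over the stage VIII samples, against 492 to 716 at stage IX-XI and stage medians of 391 to 511 elsewhere, and Uchl1 held most of it. For 15 undifferentiated spermatogonia markers, Uchl1 and Epcam among them, stage medians were 1325 at stage VIIc.d, 1519 at stage VIII and 1394 at stage IX-XI. Those of the other stages were 648 to 990. Uchl1 and Epcam held most of the sum at stage VIII. The mean log2 level over the 15 genes ranged only from 5.06 at stage VI to 5.48 at stage IX-XI, so the list as a set moved little. Its summed signal was 1337 in spermatogonia plus early spermatocytes and 2050 in Sertoli cells. In the macrophage list 1 of the 4 genes tested was called, Aif1, with 2616 at stage VIII and 1843 in round spermatids, while Cd68, Cd163 and Ptprc averaged at most 22.7 in every tubule group.

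RET, the signalling receptor, had its highest tubule signal well before Gfra1. On probe set 1371112_at the samples had 18.3, 28.2, 8.46, 36.8 and 29.6 at stage II-III, and 37.7, 41.9, 64.9 and 6.30 at stage IV-V. At stage VI they had 35.4, 19.0, 7.52, 33.8 and 35.6. The means of these 3 groups were 24.3, 37.7 and 26.3, against 3.02 to 9.60 at the other 7, and at stage VIII, where Gfra1 1367954_at was highest, Ret had 27.0, 4.69, 3.32, 9.34 and 3.63.

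All 3 Ret probe sets had their highest stage mean at stage IV-V: 14.7 ± 8.16 for 1370989_at, 37.7 ± 24.1 for 1371112_at and 41.5 ± 15.03 for 1388208_a_at (n = 4). Their stage means correlated with each other at 0.66 to 0.85 over the 10 stages, as a description of means that share arrays. The annotation names the same sequence record for 1371112_at and 1388208_a_at, so their likeness is not that of separate sequences. Probe set 1388208_a_at had 54.2, 42.7, 49 and 20.1 at stage IV-V. It was above the table median in 4 of 49 tubule samples, 2 at stage IV-V, 1 at stage I and 1 at stage IX-XI. It therefore passed the filter only through stage IV-V, the group of its peak, and its p-value gives no separate support for that peak. It was called over stages (2.77-fold, limma F-test, adjusted p = 0.0259). That call rested on stage IV-V: without its replicate 2, 3 or 4 the adjusted p was 0.0886, 0.0662 and 0.0792. Without the filter 1371112_at was called as well (4.41-fold, adjusted p = 3.5e-06), and so was 1370989_at (2.63-fold, adjusted p = 0.00059), although 1370989_at was below the table median in all 69 samples. In the same fit 1371112_at was higher at stage II-III than at stage I (log2 difference 1.70, adjusted p = 0.00173, where 2.71% of probe sets were called) and lower at stage VIIa.b than at stage VI (-1.27, adjusted p = 0.0396, where 1.66% were called). Over the 10 stage means, Gfra1 1367954_at correlated with the Ret probe sets at -0.24, -0.42 and -0.69, again a description.

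**Figure D3:**
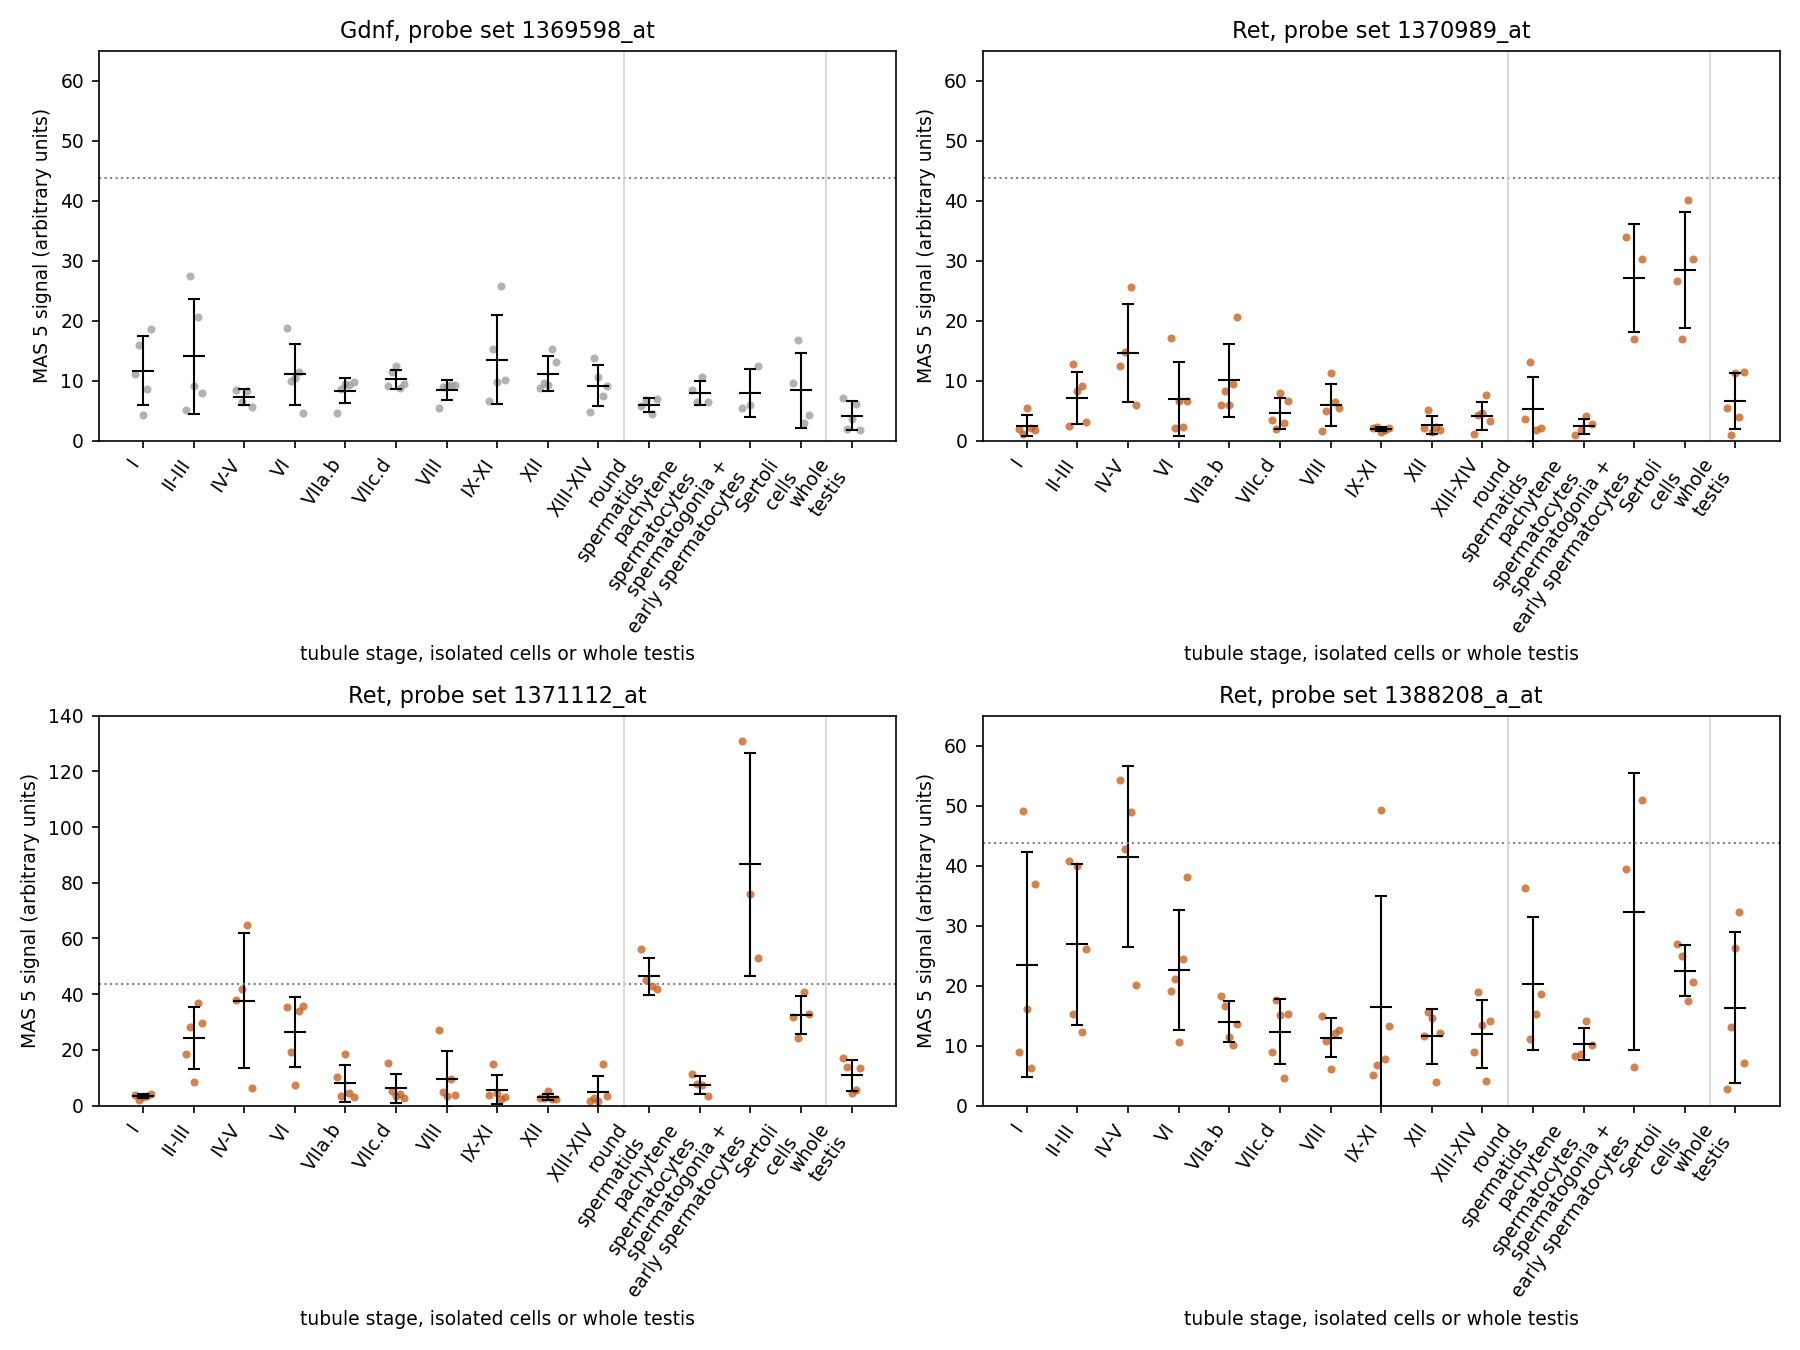
Signal of the Gdnf probe set and the 3 Ret probe sets (MAS5 scale, arbitrary units, linear axes from 0) in every sample by group, with points for samples, black bars for the mean ± SD and a dotted line at the table median of 43.7; the axis of Ret 1371112_at runs higher than the others. All 3 Ret probe sets have their highest stage mean at stage IV-V, and Gdnf never exceeds 27.5.

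In the isolated cells, 2 of the 3 Ret probe sets were highest in spermatogonia plus early spermatocytes and 1370989_at in Sertoli cells. Probe set 1371112_at had 131, 75.9 and 52.8 there (86.6 ± 40.2, n = 3), 56.2, 45.2, 42.8 and 41.7 in round spermatids (46.5 ± 6.67, n = 4), 11.3, 7.85, 7.42 and 3.28 in pachytene spermatocytes (7.46 ± 3.27, n = 4) and 31.7, 24.1, 40.7 and 33.0 in Sertoli cells (32.4 ± 6.78, n = 4). Pachytene spermatocytes lay below every sample of the other 3 groups. The F-test called the probe set (7.05-fold, adjusted p = 1.94e-07), and in pairs spermatogonia plus early spermatocytes exceeded pachytene spermatocytes 7.05-fold (adjusted p = 7.45e-08), where 47.1% of probe sets were called. In this fit 5 of 15 samples were above the table median, 3 of spermatogonia plus early spermatocytes and 2 of round spermatids. The probe set thus passed the filter only through spermatogonia plus early spermatocytes. The p-values of this fit give no separate support for its high signal in that group.

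Round spermatids exceeded pachytene spermatocytes 4.20-fold on the same Ret probe set (log2 difference 2.07, adjusted p = 3.38e-06), and Sertoli cells exceeded them 3.03-fold (adjusted p = 2.51e-05), where 61.9% were called. The pachytene signals lay within the range of Gdnf, so the sizes of these 3 differences rest on the pseudocount: spermatogonia plus early spermatocytes minus pachytene spermatocytes was 3.37 in log2 on Ret 1371112_at with a pseudocount of 1 and 2.07 with 16, against 2.82. The excess of spermatogonia plus early spermatocytes over Sertoli cells (2.33-fold, adjusted p = 0.00142) fell below 2-fold without replicate 1 of the spermatogonia (log2 difference 0.89) and was lost with quantile normalization (0.52, adjusted p = 0.128). Round spermatids and spermatogonia plus early spermatocytes differed by -0.75 (95% interval -1.36 to -0.14, adjusted p = 0.0273), under 2-fold, and by -1.03 (adjusted p = 0.00433), past 2-fold, without replicate 3 of the spermatogonia, the one of high control ratio. In tubules, the summed signal of the 8 round spermatid markers was highest at stages IV-V, VI and VIIa.b (medians of 15405, 18840 and 17100), where this Ret probe set averaged 37.7, 26.3 and 7.91.

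The other Ret probe sets gave only part of this pattern. Probe set 1370989_at, tested without the filter, had 34.0, 16.9 and 30.3 in spermatogonia plus early spermatocytes and 26.6, 16.9, 40.2 and 30.2 in Sertoli cells, against means of 5.20 in round spermatids and 2.39 in pachytene spermatocytes (F-test adjusted p = 5.18e-06). Probe set 1388208_a_at had 39.5, 6.48 and 51.0 in spermatogonia plus early spermatocytes, a spread that covered every other isolated sample, and was not called (adjusted p = 0.128 without the filter). Round spermatids were therefore high on 1 of the 3 Ret probe sets. The Ret signal of spermatogonia plus early spermatocytes and Sertoli cells stood in the 2 preparations that also held Leydig cell marker signal. Markers of Schwann cells and neurons (5 genes, summed) had 771 in spermatogonia plus early spermatocytes and 712 in Sertoli cells. They had about 143 in round spermatids and in pachytene spermatocytes and 205 to 294 in tubules. The mean log2 level over these 5 genes was 6.21 in spermatogonia plus early spermatocytes. In Sertoli cells it was only 5.20, below the 5.29 to 5.74 of the tubule groups, so the list as a set was not raised there. The part of either list was not tested. Whole testis, with 2612 of the Leydig cell marker signal, had 10.9 ± 5.58 on 1371112_at.

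Against stage VIII tubules, Ret 1371112_at went the other way from Gfra1. Stage VIII was lower than spermatogonia plus early spermatocytes (log2 difference -2.76, adjusted p = 1.11e-07), round spermatids (-2.01, adjusted p = 1.9e-05) and Sertoli cells (-1.54, adjusted p = 0.000441; under 2-fold, at -0.98, with a pseudocount of 16). It did not differ detectably from pachytene spermatocytes (0.06, 95% interval -0.73 to 0.85, adjusted p = 0.919). Probe set 1388208_a_at passed in none of these 4 contrasts, but the difference from spermatogonia plus early spermatocytes was -1.64 (adjusted p = 0.00533) without their replicate 2, against -0.93 with it, and that from Sertoli cells was -1.41 (adjusted p = 0.00246) with quantile normalization. For Gfra1 1387007_at, stage VIII exceeded Sertoli cells 2.09-fold (adjusted p = 7.39e-08) and did not differ detectably from round spermatids (-0.04, 95% interval -0.38 to 0.29).

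Whole testis, which adds the tissue between the tubules, had no member called higher than in tubules. Gfra1 1367954_at had 248, 129, 191, 92.3 and 227 there (178 ± 65.5, n = 5). It differed from the mean of the 10 stages by -0.004 in log2 (95% interval -0.38 to 0.38, limma adjusted p = 0.992), where 3.73% of probe sets were called. That mean was taken over log2 values, with equal weight for each stage. For a probe set of such wide stage range it lies below the mean of the signals themselves. The small difference therefore does not show that whole testis equals the average tubule signal. Gfra1 1387007_at was lower in whole testis by less than 2-fold (log2 difference -0.38, adjusted p = 0.00993). Ret 1371112_at (0.12, 95% interval -0.43 to 0.68) and Ret 1388208_a_at (-0.21, 95% interval -0.81 to 0.39) did not differ detectably. Gdnf, tested without the filter, was lower in whole testis (-0.73, adjusted p = 0.00328), with 7.18, 1.98, 3.63, 6.14 and 1.84, again under 2-fold, where 3.16% of probe sets were called.

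The genes most like Gfra1 1367954_at depended on whether the isolated cells were counted. Over the 10 stage means, the highest correlations were those of Nt5dc1 (r = 0.99), Spcs3, a signal peptidase subunit (0.99), Ppp1r12a, a myosin phosphatase subunit (0.99), Ap2m1, an adaptor of endocytosis (0.99), Aldh7a1 (0.99), Noc4l, Mrps7, Hacl1, Wwp2 and Cdkl2 (0.98 to 0.99). All but Wwp2 had an isolated group above the stage VIII signal. Spcs3 had 596 at stage VIII and 701 in pachytene spermatocytes, and Aldh7a1 had 223 at stage VIII and 1054 in Sertoli cells. Of the 50 most alike, 4 were highest in round spermatids among the isolated cells, 15 in pachytene spermatocytes, 15 in spermatogonia plus early spermatocytes and 16 in Sertoli cells. Only 7 of the 50 (14%) had all 4 isolated groups below stage VIII, against 18.9% of the 16232 probe sets compared.

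Over all 15 group means the most alike were Gmfg (r = 0.96), Mmp9, a matrix metalloprotease (0.96), Wwp2, a ubiquitin ligase (0.95), C5h6orf163 (0.95), Apba2 (0.94), Eif3j (0.94), Sufu, an inhibitor of Hedgehog signalling (0.94), Klc3, a kinesin light chain (0.94), Ccdc159 (0.93) and Cdyl, a chromodomain protein (0.93). Sufu averaged 2486 at stage VIII and 935 in round spermatids, with 168 in pachytene spermatocytes, 51.0 in spermatogonia plus early spermatocytes and 30.4 in Sertoli cells. Cdyl averaged 2137 at stage VIII and 922 in round spermatids, with at most 123 in the other isolated cells. Of the 50 most alike, 46 were highest in round spermatids among the isolated cells, against 28.3% of all, a share that the choice of alike probe sets partly fixes. Of the 10, 9 had a promoter in the RefSeq table, and 3 of these windows held the GC box seen in Gfra1, against 30.5% of all promoters.

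**Figure D4:**
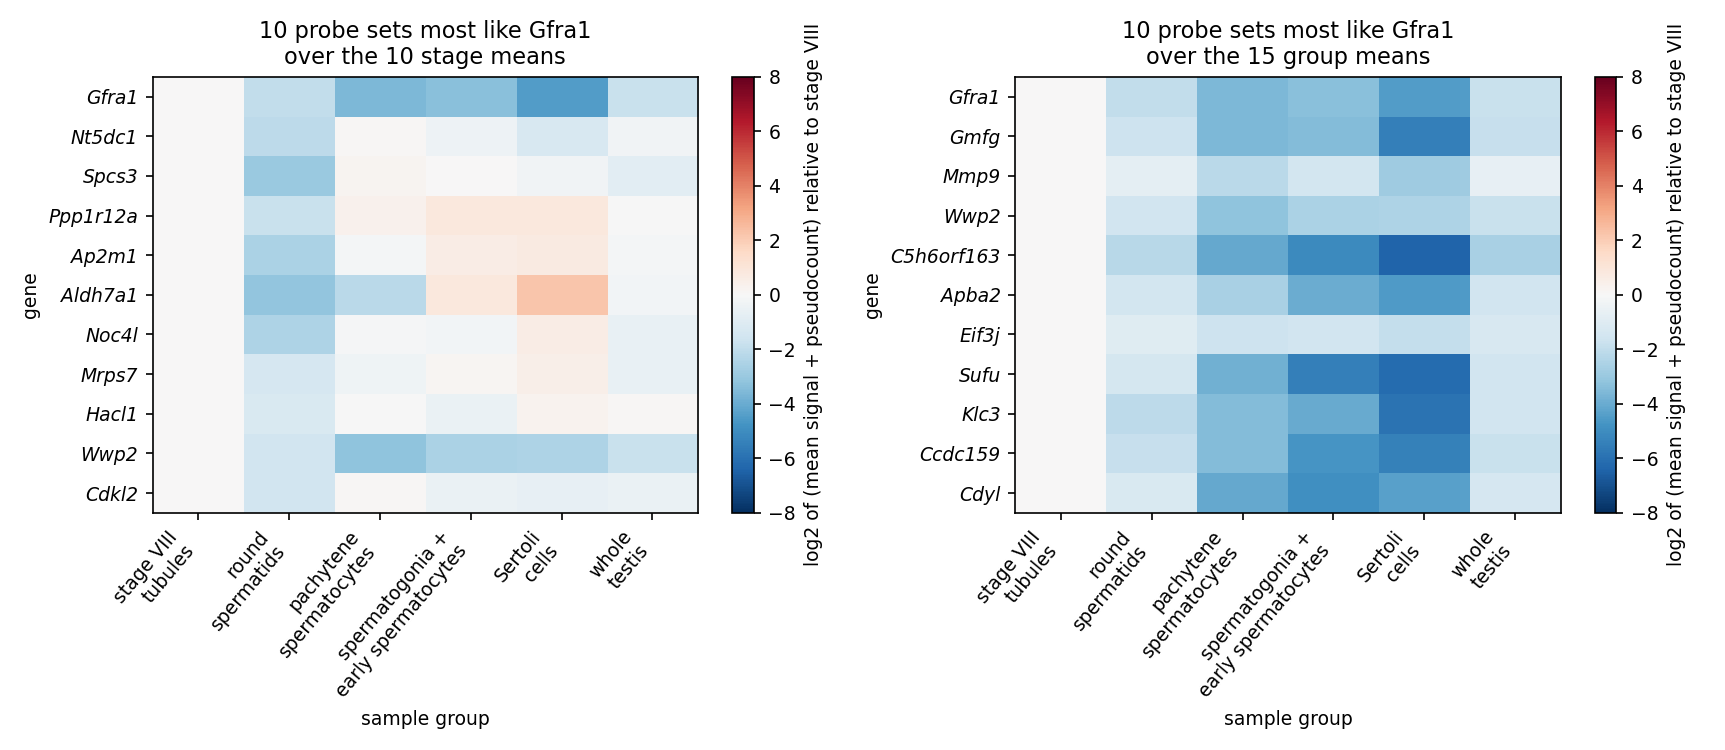
Mean signal of Gfra1 1367954_at (top line) and of the 10 probe sets most like it over the 10 stage means (left) and over the 15 group means (right), as log2(mean signal + pseudocount) relative to stage VIII tubules, where blue is lower and red higher. On the right every isolated group is below stage VIII and round spermatids are the palest of them, while on the left Aldh7a1 is red in Sertoli cells.

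Of the ligands and co-receptors related to GDNF, 7 of 9 names were on the array, and 1 of the 7 was called over stages, against 32.5% of all. It was Sdc3, a heparan sulfate proteoglycan that binds GDNF, with a mean of 71.7 at stage II-III and 144 ± 28.3 at stage VIII (2.01-fold, limma F-test, adjusted p = 0.0294). Gfra2, the neurturin co-receptor, had stage means between 98.5 and 140 and was not called (1.43-fold, adjusted p = 0.0481), with 203 in spermatogonia plus early spermatocytes against 29.7 in Sertoli cells. Gfra3, the artemin co-receptor, had 68.2 at stage VIII and was not called. Its isolated groups spanned 22.9 in Sertoli cells to 71.5 in round spermatids.

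RET adaptors and kinases were called over stages for 8 of the 18 tested, against 32.5% of all probe sets, with peaks at 6 different stages. Grb2, the adaptor that leads to RAS, had 311 at stage VIIa.b and 77.1 at stage XIII-XIV (3.88-fold, adjusted p = 2.33e-22). Cbl, a ubiquitin ligase that downregulates receptor tyrosine kinases, had 190 at stage II-III and 615 ± 51.3 at stage VIII (3.18-fold, adjusted p = 6.07e-24), but reached 794 in pachytene spermatocytes. Src had 32.0 at stage II-III and 117 at stage VIIc.d (3.71-fold, adjusted p = 7.8e-05). Cbl, Sos1 and Ptprf peaked at stage VIII. The median log2 range over stages was 0.95 for the list and 0.89 for all probe sets tested.

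Genes known to respond to GDNF in cultured rodent spermatogonia were called for 3 of 10, near the 32.5% of all probe sets. Cxcr4, a chemokine receptor, had 21.1 at stage VI and 98.7 ± 9.73 at stage VIII (5.03-fold, adjusted p = 9.21e-08), but its isolated cell signal was 48.2 in spermatogonia plus early spermatocytes and 605 in Sertoli cells. Id4 peaked at stage XII (2.03-fold, adjusted p = 1.31e-15) and Tspan8 at stage I (5.27-fold, adjusted p = 1.27e-06). Etv5 and Bcl6b, both transcription factors of this group, were not called, with adjusted p = 0.205 and 0.521.

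Undifferentiated spermatogonia markers were called for 3 of 9, against 32.5% of all probe sets, and one of these, Epcam, was below its stage VIII level in all isolated groups. Epcam, a cell adhesion molecule, averaged 64.8 at stage VI, 642 ± 90.4 at stage VIII and 549 at stage IX-XI (9.32-fold, adjusted p = 1.28e-30). Its isolated cell means were 135 in round spermatids, 112 in pachytene spermatocytes, 178 in spermatogonia plus early spermatocytes and 172 in Sertoli cells, another order than that of Gfra1 1367954_at. Uchl1 also peaked at stage VIII, with 174 at stage VI and 465 ± 57.3 at stage VIII (2.62-fold, adjusted p = 2.66e-15), but had 1181 in Sertoli cells. Dusp6 peaked at stage XII in the log2 means (2.67-fold, adjusted p = 7.32e-05).

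In the last 3 lists the counts stand against the same 32.5% of all probe sets. Differentiating spermatogonia markers were called for 2 of 3: Kit, the receptor for stem cell factor, with its peak at stage XII (2.53-fold, adjusted p = 0.00279), and Dmrt1 at stage IV-V (2.80-fold, adjusted p = 7.69e-06), the group in which Ret was highest. Kit and Dmrt1 had 150 and 249 in spermatogonia plus early spermatocytes, against at most 42.9 and 233 in the other isolated cells. Other niche factors were called for 3 of 10 (Kitlg and Wnt5a with peaks at stage I, Wnt6 at stage IV-V) and regulators of Gdnf in Sertoli cells for 4 of 10 (Notch1, Hes1, Dmrt1 and Creb1). Creb1 had 587 at stage VI and 611 in round spermatids, against 44.6 in Sertoli cells.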

How the data were processed

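The authors' deposited table gave 1 signal intensity per probe set and array, made with MAS5 per the submitters' processing notes (no version given) and, from the values, scaled so that each array has the same mean after trimming of 2% at each end. Biotinylated cRNA was made from total RNA per the labels' protocols. The sources used here do not give the genome build, filters or detection calls. Of 31099 probe sets, 57 controls were left out; 20826 had 1 gene symbol, 436 several and 9780 none in the platform annotation, updated through RefSeq GRCr8.

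Log2(signal + 5.11, the 10th percentile) was fitted with limma 3.58.1 in R 4.3.3 with an intensity trend: tubules alone (49 samples), isolated cells alone (15) and all 69. Probe sets above 43.7 in at least 3 samples of a fit were tested. Adjusted p-values are Benjamini-Hochberg over all tested, two-sided. Where a listed gene had several probe sets, the one with the highest mean signal stood for it. Genes most alike are the 10 probe sets with 1 symbol of another gene and the highest Pearson r; listed genes are named where called, and some others as background. The members, lists and the 5 samples of high control ratio were chosen with earlier results of these data known. The tests were checked on simulated data. Whether isolated cell samples came from separate animals was not stated, so p-values measure the spread between these samples. The number of arrays per group limits the precision.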

Additional observations from a re-analysis of the deposited data

Results flagged for a closer look

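Among 84 combinations of a probe set and a group of 4 or 5 samples, 15 held a sample far from the others by Dixon's test at its 95% critical value. Chance gives about 1 in 20 such groups where values are normally distributed. The test used signals without log2, and the combinations share arrays, so the count of 15 cannot be read against that rate. On Gfra1 1367954_at, stage XII replicate 4 had 548 (others 242 to 290) and stage VIIa.b replicate 2 had 170 (others 254 to 266). On Gfra1 1387007_at, stage IV-V replicate 2 had 95.2 (others 78.8 to 80.2).

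The other 12 lay at low signals. Gdnf had 4.65 in stage VIIa.b replicate 1 and 5.49 in stage VIII replicate 1, each below its group. Ret 1370989_at had 5.52 in stage I replicate 3, 20.6 in stage VIIa.b replicate 5, 5.13 in stage XII replicate 2 and 13.2 in round spermatid replicate 2, each above its group. Ret 1371112_at had 15.2 in stage VIIc.d replicate 1, 27.0 in stage VIII replicate 1, 14.8 in stage IX-XI replicate 2, 5.06 in stage XII replicate 3 and 15.1 in stage XIII-XIV replicate 4, each above its group. Ret 1388208_a_at had 49.2 in stage IX-XI replicate 3, above the 5.16 to 13.2 of the others. In Ret 1388208_a_at and Ret 1371112_at the stage IX-XI samples concerned are 2 of the 5 arrays with a high control ratio.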

How the results depend on the processing

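The 81 results were recomputed with other pseudocounts, scalings, filters, trend settings, left-out replicates, left-out high-ratio samples and a replicate block, which gave 3325 alternative values. Of these, 3301 kept their call, 16 lost it, 6 gained one and 2 counts moved by over 1.5 times. No called difference turned direction, while 52 values of 17 differences that were not called had the other sign, with main values of at most 0.29 and alternatives of at most 0.43 in size. The stage range of Ret 1388208_a_at was 1.33 to 1.77 in log2 with 1 replicate left out, and lost its call without stage IV-V replicate 2, 3 or 4, each leaving 3 samples in that group. Gfra1 1387007_at, stage VIII minus Sertoli cells, was 0.91 with a pseudocount of 16, 0.70 with quantile normalization and 0.91 to 1.20 with 1 replicate left out, under 2-fold without stage VIII replicate 4 or Sertoli cell replicate 2. Probe sets called between whole testis and tubules numbered 898, against 1493 with a pseudocount of 1 and 393 with 16. The main fits did not pair samples by replicate number. Deviations of same-numbered tubule samples correlated at a median of 0.05 (41 of 216 pairs over 0.1, at most 0.23). The median for differently numbered tubule samples was -0.014, so a weak link by replicate number remains possible. With the replicate number as a block, 7381 probe sets were called over stages, against 7240, and Ret 1388208_a_at had a range of 1.45 (adjusted p = 0.0189). With no detection calls, signals near those of Gdnf and Ret 1370989_at have no known background.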
